A study of Mus musculus with 15 samples.

Results

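The effector and memory fate transcription factors examined here were 10 mouse genes, Tbx21, Eomes, Tcf7, Lef1, Id2, Id3, Prdm1, Bach2, Zeb2 and Foxo1, chosen by name out of 55536 genes of the deposited count table. Their RNA was measured in 15 libraries of sorted CD8+ T cells, 5 in each of 3 groups. All cells carried the OT-I receptor transgene, which recognises the ovalbumin peptide SIINFEKL, and per the study's methods the OT-I lines lacked Rag1 or Rag2. Naive libraries came from OT-I mice whose cells had not been transferred. For the Ag libraries, OT-I cells were moved into C57BL/6J recipients that received peptide with a rat IgG control, and for the Ag+Costim libraries into recipients given peptide with agonist antibodies to CD134 (OX40) and CD137 (4-1BB). The labels give harvest of spleen and lymph nodes at 4 days (the study's methods give a slightly shorter time), and transferred cells were sorted as CD8+ CD45.1+ Vα2+ Vβ5+. The recipients were wild type and kept their own lymphocytes, so the sort alone separated donor from host cells, and the labels give no age for a group. Per the study each library was a separate biological replicate, and p-values measure the spread between these libraries.

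After antigen, a CD8+ T cell divides and its progeny take up effector or memory states under the control of opposed transcription factors. T-bet (Tbx21), Eomes, Id2, Blimp-1 (Prdm1) and Zeb2 are linked to cytotoxic effector differentiation, with Eomes also acting in memory cells. TCF-1 (Tcf7), Lef1, Id3, Bach2 and Foxo1 are linked to quiescence, self-renewal and the memory pool, and several of them are highly expressed in resting naive cells.

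Libraries held 4865952 to 25280667 counts, the fewest in Ag 3, in which 16.9% of sequenced reads were counted. All 10 factors passed the filter on low counts, with 12 counts for Prdm1 at the lowest. The 6 markers of CD8+ T cells summed to between 4625 and 8392 CPM (counts scaled to a common library size) in every library, and Cd4 was at most 4.79 CPM. Markers of B cells stood apart in 3 Ag libraries. The 6 B cell genes summed to 160, 412 and 214 CPM in Ag 1, Ag 3 and Ag 4, against 25.6 to 48.0 CPM in the other 12 libraries. Ag 3 also held 966 CPM of the 5 erythroid genes and Naive 5 held 175 CPM of the 6 myeloid genes, each the highest of all libraries. In most of the 10 factors Ag 1 and Ag 4 were near the Naive libraries and Naive 5 was nearer the activated ones than the other Naive libraries were, and the labels were kept as given. Library preparation used an input of 1.4 in Ag 2 and 1.8 in Ag 5, in a unit that is not given, and of 7 to 10 in the other libraries. No sequencing lane held both Ag and Naive libraries, so that comparison has no value within a lane. Lane could be fitted beside group only through Ag+Costim, which was split over both lanes.

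In Ag+Costim cells, Tbx21 and Id2 were higher than in Naive cells and Tcf7, Lef1, Bach2 and Foxo1 were lower. These 6 of the 10 factors passed edgeR's quasi-likelihood test with a false discovery rate (FDR, Benjamini-Hochberg) under 0.05. Of all 17366 genes tested, 44.7% were called in this comparison, 21% higher and 23.6% lower. CPM of the same 6 factors did not overlap between the groups, 2 higher and 4 lower, against 45% of all genes (22.7% higher and 22.3% lower). Of the 10 factors 7 had an unadjusted p under 0.05, as did 55.7% of all genes, and DESeq2 called the same 6 where it called 40.6%. With 5 of 5 libraries on each side, the 4 decreases ranged from 1.35 to 2.83 on the log2 scale and the 2 increases were 1.22 and 1.68. In bulk RNA, fewer cells of a type and less RNA per cell cannot be told apart. Within lane 3 alone (5 Naive and 2 Ag+Costim libraries) all 6 were called (edgeR FDR 0.0198 to 0.0486), with 34.7% of all genes. With lane as a term 3 were called (Lef1, Bach2 and Foxo1), with 5.43% of all genes, and Tbx21, Tcf7 and Id2 were not (FDR 0.0641, 0.0527 and 0.13). Antigen alone gave 1 call, a lower level of Lef1, where 6.71% of all genes were called, 3.05% higher and 3.66% lower. In that comparison 5 factors had an unadjusted p under 0.05, as did 28.7% of all genes, DESeq2 called 3 (Lef1, Foxo1 and Id3) where it called 15.8%, and 0 factors had groups that did not overlap, against 3.85% of all genes (1.76% higher and 2.09% lower). Adding costimulation to antigen gave 0 calls among the 10 factors by edgeR, where 0.0346% of all genes (6 of 17366) were called, 0.0288% higher and 0.00576% lower, and lane 2 alone gave 0 as well. There, 3 factors (Bach2, Id3 and Foxo1) had an unadjusted p under 0.05, as did 26.8% of all genes, and DESeq2 called 2 (Bach2 and Id3) where it called 20.7% of genes. Limma voom with sample quality weights called 9 of the 10, all but Zeb2, and 64.5% of all genes. It gave Ag 5, Ag 2, Naive 5 and Ag 3 the lowest weights (0.0793, 0.122, 0.196 and 0.362, against 0.624 to 4.08 in the other libraries), and under it Tbx21 was at 1.74, Id2 at 1.66, Eomes at 1.63 and Prdm1 at 3.26. The groups overlapped for all 10 factors, while 6.33% of all genes did not overlap, 4.23% higher and 2.1% lower in Ag+Costim. The median log2 fold change over the 10 factors was -0.16, -0.40 and -0.60 in Ag vs Naive, Ag+Costim vs Ag and Ag+Costim vs Naive, beside 0.08, -0.10 and -0.08 over all genes. The 3 comparisons share libraries, so their values are given side by side and are not independent. Leaving out 1 library moved the share of all genes called. In Ag vs Naive it was 21.5% without Naive 5, 10.4% without Ag 1, 6.99% without Ag 3 and 11% without Ag 4. It was 1.42%, 1.48% and 2.84% without Naive 1, Naive 3 and Ag 2. In Ag+Costim vs Ag it was 14.8% without Ag 2 and 19.7% without Ag 5. In Ag+Costim vs Naive it ran from 21.6% without Naive 4 to 51% without Naive 5.

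**Figure D1:**
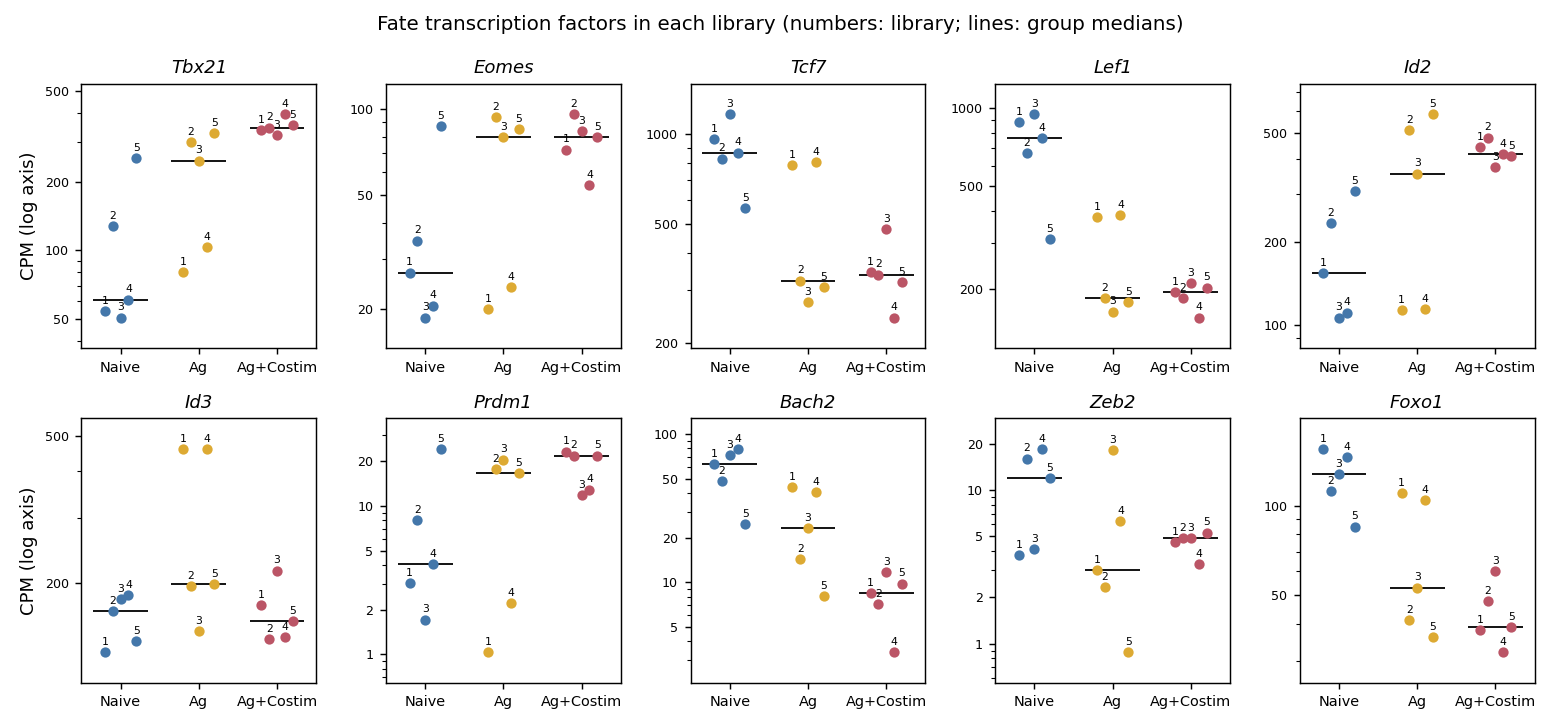
CPM on a log axis for each of the 10 factors, 1 point per library (numbered 1 to 5) in Naive, Ag and Ag+Costim, with lines at group medians. Ag+Costim libraries sit close together for Tbx21 (322 to 397 CPM) and Lef1 (155 to 211 CPM), while Ag 1 and Ag 4 lie apart from the other Ag libraries for Tcf7, Id2 and Id3.

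**Figure D2:**
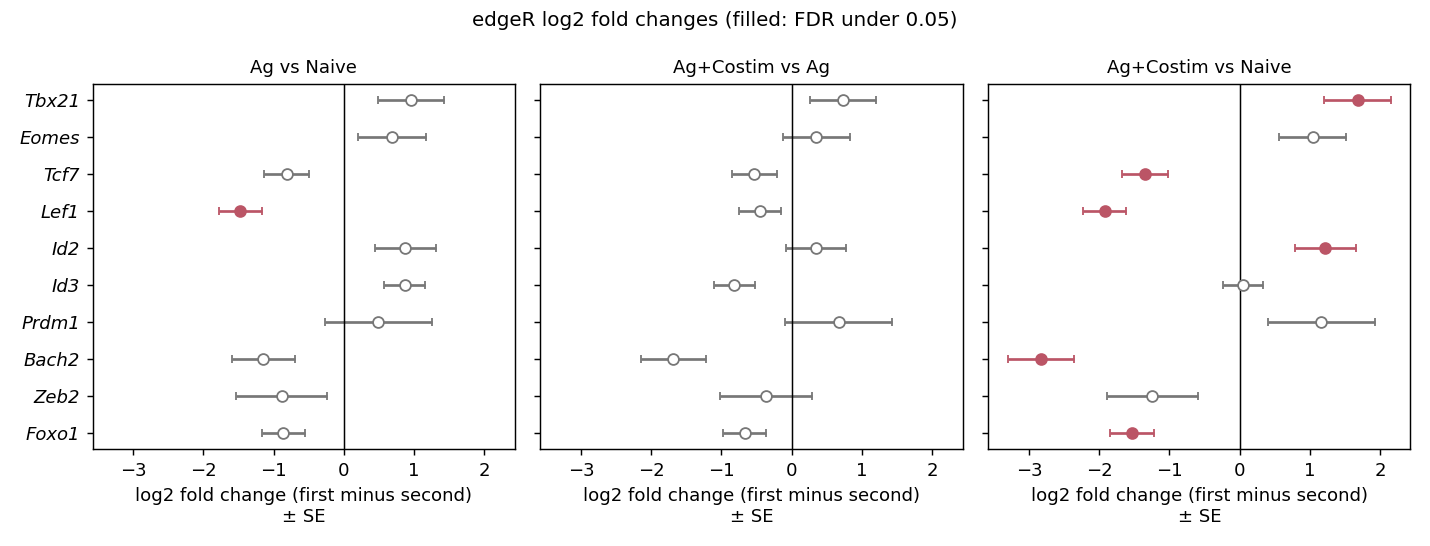
Log2 fold change with its standard error from edgeR for each factor in 3 comparisons, first group minus second, from 5 libraries per group; filled points have an FDR under 0.05. The 6 filled points of Ag+Costim vs Naive run from -2.83 for Bach2 to 1.68 for Tbx21, and Ag+Costim vs Ag has none.

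The order of the factors by level differed between resting and costimulated cells. Length was the merged exons of all annotated transcripts of a gene, so the order depends on annotation (8788 bases for Lef1, 1791 for Id3). Compared per length, as CPM per kilobase of exon, Naive cells held most Tcf7 (334 ± 83.4 SD, n = 5), followed by Id3 (89.6 ± 13.9), Lef1 (81.7 ± 28.6), Id2 (74.9 ± 35.3) and Tbx21 (44.0 ± 34.9). In CPM without length the Naive mean was 718 for Lef1 and 160 for Id3. Tcf7 did not overlap with the next factor in Naive, nor did Tbx21 with Foxo1, which came after it, whereas Id3, Lef1, Id2 and Tbx21 overlapped in turn. In Ag+Costim cells the first places were held by Id2 (174 ± 16.0), Tbx21 (141 ± 11.4) and Tcf7 (131 ± 32.8), whose ranges overlapped, and by Id3 (92.7 ± 17.2). In Ag the first 4 were Tcf7, Id3, Id2 and Tbx21, at means of 190, 163, 137 and 85.1 CPM per kilobase, with overlap at every step of the order. Prdm1, Bach2 and Zeb2 held the last 3 places in every group, at under 6 CPM per kilobase on average. Per kilobase Zeb2 was last throughout, at 0.546 in Naive, 0.309 with antigen and 0.230 with costimulation, over an exon length of 19942 bases. In CPM without length the Naive mean was 10.9 for Zeb2 and 8.19 for Prdm1.

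T-bet, encoded by Tbx21 (chr11:97098071-97115331, minus strand, GRCm38), is the T-box factor that directs interferon-γ and cytotoxic programs. Its level in Naive libraries 1 to 5 was 54.0, 128, 50.6, 60.6 and 254 CPM. Ag libraries 1 to 5 held 80.2, 299, 248, 103 and 328 CPM, and Ag+Costim libraries 337, 347, 322, 397 and 355 CPM. Every Ag+Costim library was above every Naive and all but 1 Ag library, and Naive 5 lay above Ag 1, Ag 3 and Ag 4. Tbx21 rose by 1.68 on the log2 scale in Ag+Costim vs Naive (SE 0.48, edgeR FDR 0.0161), a call that was lost with lane as a term (1.78, FDR 0.0641) and kept within lane 3 alone (1.80, FDR 0.0486). The value was 0.95 (SE 0.47, FDR 0.190) in Ag vs Naive and 0.73 (SE 0.47, FDR 0.321) in Ag+Costim vs Ag. Without Naive 5 the Ag vs Naive value became 1.54 with an FDR of 0.0205.

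Eomes (chr9:118478212-118486132, plus strand), the related T-box factor, followed the same libraries at a lower level. Naive libraries 1 to 5 held 26.8, 34.7, 18.7, 20.6 and 86.9 CPM, Ag libraries 20.1, 93.8, 79.7, 23.8 and 85.0 CPM, and Ag+Costim libraries 72.0, 95.7, 83.5, 54.0 and 79.9 CPM. Naive 5 was above 4 of the 5 Ag+Costim libraries, and the groups overlapped. None of the 3 comparisons was called (Ag vs Naive 0.69, FDR 0.332; Ag+Costim vs Ag 0.35, FDR 0.653; Ag+Costim vs Naive 1.04, FDR 0.0867). Without Naive 5, Ag+Costim vs Naive was 1.63 (FDR 0.00781) and Ag vs Naive 1.27 (FDR 0.0476), both called. The ratio of Tbx21 to Eomes counts, which needs no library scaling, ranged on the log2 scale from 1.01 to 1.88 in Naive, from 1.64 to 2.11 in Ag and from 1.86 to 2.88 in Ag+Costim. NK cells express both T-box factors, and their 4 marker genes summed to 10.1 to 51.9 CPM in Naive, 2.34 to 35.1 CPM in Ag and at most 2.25 CPM in Ag+Costim. The part of such cells in these values was not tested. An antisense gene, Gm33460, overlaps Eomes. The library preparation does not mark strand, so strand cannot separate its reads from those of Eomes.

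TCF-1, encoded by Tcf7 (chr11:52252371-52283014, minus strand), holds naive and memory T cells in a state able to renew. Naive libraries 1 to 5 held 961, 828, 1167, 867 and 564 CPM, Ag libraries 786, 323, 273, 806 and 307 CPM, and Ag+Costim libraries 344, 338, 481, 242 and 320 CPM. All Ag+Costim libraries were below all Naive libraries, and Ag 1 and Ag 4 lay within the Naive range. Tcf7 fell by 1.35 on the log2 scale in Ag+Costim vs Naive (SE 0.33, FDR 0.00920), which with lane as a term was -1.64 (FDR 0.0527) and within lane 3 was -1.65 (FDR 0.0238). The value was -0.81 (SE 0.32, FDR 0.1204) in Ag vs Naive and -0.53 (SE 0.32, FDR 0.295) in Ag+Costim vs Ag. Leaving out Ag 4 gave a call in Ag vs Naive (-1.05, FDR 0.0489).

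Lef1 (chr3:131110471-131224356, plus strand), the partner of TCF-1 in binding the same DNA element, was the only factor called after antigen alone. Its level in Naive libraries 1 to 5 was 885, 672, 951, 770 and 312 CPM. Ag libraries held 380, 184, 163, 385 and 178 CPM and Ag+Costim libraries 195, 184, 211, 155 and 202 CPM. Naive 5 was below Ag 1 and Ag 4, so Ag and Naive overlapped, while every Ag+Costim library was below every Naive library. Lef1 fell by 1.48 on the log2 scale in Ag vs Naive (SE 0.31, FDR 0.0165) and by 1.92 in Ag+Costim vs Naive (SE 0.31, FDR 0.00214), and was at -0.45 (SE 0.30, FDR 0.349) in Ag+Costim vs Ag. The call in Ag vs Naive was narrow. It was lost without Naive 1 (FDR 0.0520), Naive 3 (0.0522) or Ag 2 (0.0562), without Ag 2 and Ag 5 together (0.0895), with no filter on low counts (0.0529), with the 10 libraries alone (0.133) and with lane as a term (0.626), while its log2 fold change stayed between -1.84 and -1.21. In Ag+Costim vs Naive, Lef1, Bach2 and Foxo1 stayed under an FDR of 0.05 in all 20 refits.

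Lef1 is transcribed from more than 1 start, and the coding sequence differs at its beginning. Transcript Lef1-201 has 1191 coding bases, and Lef1-203, which starts 2326 bases downstream, has 993. They share 10 of 11 coding exons. The first coding exon of Lef1-201, at chr3:131111472-131111678 (plus strand, GRCm38, GENCODE M21), is absent from Lef1-203, which begins with 9 coding bases of its own at chr3:131112812-131112820. The N-terminal end of LEF1 is known as its β-catenin binding region. The sequences are shown because they are what tells the products of both transcripts apart, with the start codon in capitals.
Lef1-201 first coding exon: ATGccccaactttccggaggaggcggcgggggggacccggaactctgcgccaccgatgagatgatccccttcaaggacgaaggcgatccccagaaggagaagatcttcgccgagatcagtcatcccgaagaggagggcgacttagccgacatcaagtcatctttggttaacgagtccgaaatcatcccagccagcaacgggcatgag
Lef1-203 first coding bases: ATGgcaggg

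Lef1-203 made up 17.1, 20.6, 27.6, 29.4 and 34.8 percent of Lef1 transcript counts in Naive libraries 1 to 5. In Ag its share was 36.6, 52.8, 77.2, 31.0 and 42.9 percent and in Ag+Costim 56.6, 38.3, 45.8, 40.9 and 49.3 percent. Every Ag+Costim library thus had a larger share of Lef1-203 than every Naive library. How many transcripts of all genes separate in this way was not computed, so the separation has no background beside it. The 45% of all genes that did not overlap between these groups was for CPM, which is another measure. Lef1-201 held 53.6 to 69.2 percent in Naive, 0 to 57.6 percent in Ag and 32.0 to 55.7 percent in Ag+Costim, with the 0 in Ag 3, the library with the fewest counts. The mean share of Lef1-203 was 25.9% ± 7.06 (SD, n = 5) in Naive and 46.2% ± 7.23 in Ag+Costim, a difference of 20.3 percentage points. In edgeR's test of transcript usage the change in Lef1-203 between these groups was not called (FDR 0.773, gene FDR 0.965). Of the 10 factors, 6 with 20 transcripts entered that test (Tcf7, Lef1, Id2, Id3, Bach2 and Eomes) and 0 were called by it in any comparison. Of 7501 genes it called 0.547% after antigen alone against Naive, 0.933% between the activated groups and 1.01% after costimulation against Naive. None of the 20 transcripts had an unadjusted p under 0.05 in any comparison, the lowest being 0.0677 for the retained-intron form Lef1-208 in Ag vs Naive. Shares of transcripts were estimated from reads of 50 bases (per the labels) and could go wholly to a single form. Bach2-202 and Bach2-207 were an example, with 98.0% of Bach2 counts on Bach2-207 in Ag 1 and 99.2% on Bach2-202 in Ag 5, and 99.2% on Bach2-207 in Ag+Costim 1 and 100% on Bach2-202 in Ag+Costim 2.

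**Figure D3:**
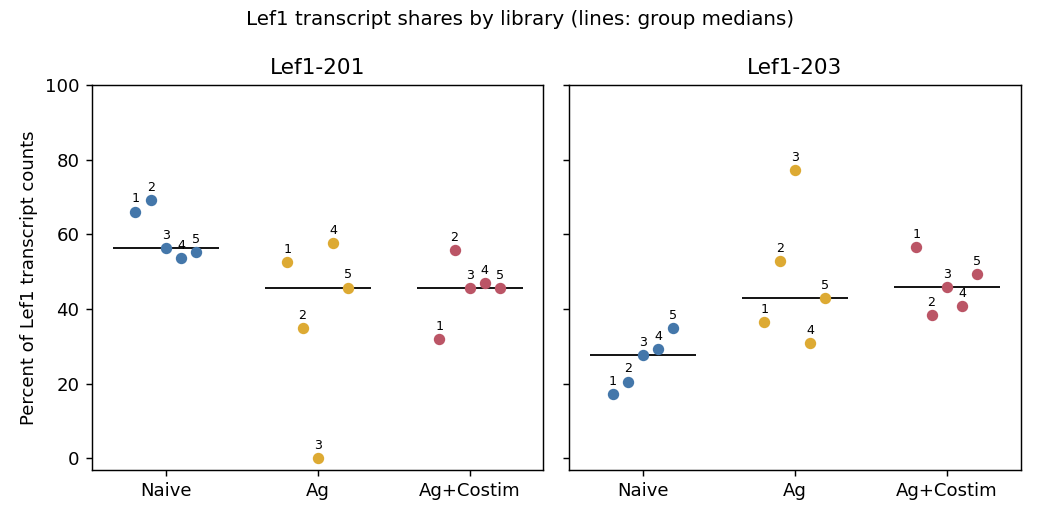
Percent of Lef1 transcript counts assigned to Lef1-201 (left) and Lef1-203 (right) in each library (numbered 1 to 5) of Naive, Ag and Ag+Costim, with lines at group medians. Lef1-203 lies between 17.1 and 34.8 percent in Naive and between 38.3 and 56.6 percent in Ag+Costim.

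Id2 and Id3 encode proteins that bind E proteins and keep them from DNA; Id2 is linked to effector cells and Id3 to naive and memory cells. Id2 (chr12:25093799-25097140, minus strand) was at 155, 235, 107, 111 and 306 CPM in Naive libraries 1 to 5. In Ag libraries it was at 114, 509, 355, 114 and 583 CPM, and in Ag+Costim libraries at 442, 479, 374, 418 and 412 CPM. The Ag libraries thus lay on both sides of the range of Ag+Costim, with Ag 1 and Ag 4 in the range of Naive. Id2 rose by 1.22 on the log2 scale in Ag+Costim vs Naive (SE 0.44, FDR 0.0371). Within lane 3 it had an FDR of 0.0451. The call was narrow, being lost with lane as a term (FDR 0.13) and without any of Naive 1, 3 or 4 or Ag+Costim 1, 2, 3 or 5 (FDR 0.0535 to 0.0892). Ag vs Naive was 0.88 (SE 0.43, FDR 0.193) and turned to -0.05 without Ag 2 and Ag 5, and Ag+Costim vs Ag was 0.34 (SE 0.43, FDR 0.621).

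Id3 (chr4:136143497-136145755, plus strand) took another course from the other factors, with its highest levels in Ag 1 and Ag 4. Naive libraries 1 to 5 held 130, 167, 181, 185 and 139 CPM, Ag libraries 460, 196, 148, 460 and 198 CPM, and Ag+Costim libraries 174, 141, 216, 142 and 157 CPM. The other 3 Ag libraries lay within the range of Ag+Costim. Ag vs Naive was 0.87 (SE 0.29, FDR 0.0796), Ag+Costim vs Ag was -0.82 (SE 0.29, FDR 0.105) and Ag+Costim vs Naive was 0.05 (SE 0.29, FDR 0.897), none of which was called. The last was of either sign across settings (-0.11 with library totals alone, under which the median of all genes moved from -0.08 to -0.23). Leaving out single Ag libraries gave calls for Id3 in Ag vs Naive without Ag 3 (1.04, FDR 0.0341) and in Ag+Costim vs Ag without Ag 5 (-0.92, FDR 0.0450). Without Ag 2 and Ag 5, Ag+Costim vs Ag was -0.997 (FDR 0.0260). DESeq2 called Id3 in both comparisons (0.84, FDR 0.0457, and -0.82, FDR 0.0438). The log2 ratio of Id2 to Id3 counts was -2.02 in Ag 1 and -2.01 in Ag 4, but 1.38, 1.26 and 1.55 in Ag 2, Ag 3 and Ag 5. It ranged from -0.76 to 1.13 in Naive and from 0.79 to 1.77 in Ag+Costim. Zbtb7b, a factor of the CD4 lineage, was at 10.9 CPM in Ag 1 and 19.5 CPM in Ag 4 and at most 4.36 CPM in the other libraries, while Cd4 was at 2.07 and 0.859 CPM. Cd40lg was at 6.97 and 13.4 CPM there, at 0.939 to 2.83 CPM in the other Ag libraries and at 1.39 to 3.30 CPM in Ag+Costim. It reached 20.2 CPM in Naive 1, and Cd4 was highest in Ag 3. The 4 CD4 marker genes summed to 21.1 CPM in Ag 1 and 34.4 CPM in Ag 4. The sum was 3.93, 12.8 and 5.20 CPM in Ag 2, Ag 3 and Ag 5, 3.98 to 9.07 CPM in Ag+Costim and 7.98 to 23.2 CPM in Naive. Whether other cells add to Id3 in Ag 1 and Ag 4 was not tested.

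**Figure D4:**
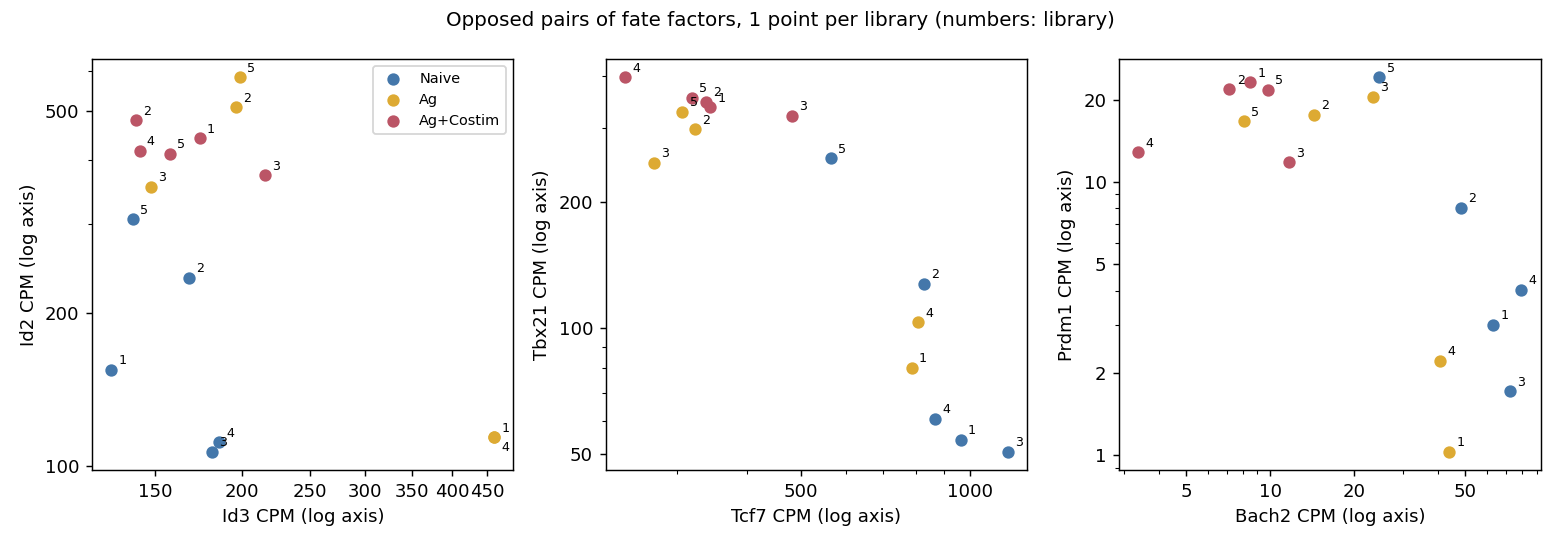
CPM of 3 opposed pairs on log axes, 1 point per library (numbered 1 to 5): Id2 against Id3, Tbx21 against Tcf7 and Prdm1 against Bach2. In the first panel Ag 1 and Ag 4 coincide at 460 CPM of Id3 and 114 CPM of Id2; in all panels Ag 2, Ag 3 and Ag 5 lie nearer Ag+Costim than Ag 1 and Ag 4 do.

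Bach2 and Prdm1 encode repressors with opposed roles, Bach2 restraining effector genes and Blimp-1 shutting down the memory program. Bach2 (chr4:32238804-32586108, plus strand) was at 63.0, 48.3, 72.4, 79.3 and 24.6 CPM in Naive libraries 1 to 5, at 43.8, 14.3, 23.3, 40.6 and 8.08 CPM in Ag libraries and at 8.48, 7.15, 11.7, 3.37 and 9.80 CPM in Ag+Costim libraries. Of the Ag libraries, only Ag 5 reached the range of Ag+Costim. Bach2 fell by 2.83 on the log2 scale in Ag+Costim vs Naive (SE 0.48, FDR 0.00237), the largest change among the 10 factors. Ag vs Naive was -1.15 (SE 0.45, FDR 0.118) and called without Naive 5 (-1.34, FDR 0.0425). Ag+Costim vs Ag was -1.68 (SE 0.46, FDR 0.0807), also the largest of the 10 in that comparison, and was called without Ag 2 (FDR 0.0343) or Ag 5 (FDR 0.0204) and with DESeq2 (FDR 0.00725). Resting B cells express Bach2, Foxo1 and Id3 too. Their markers, given above, were high in Ag 1, Ag 3 and Ag 4, most so in Ag 3. These libraries held 43.8, 23.3 and 40.6 CPM of Bach2 against 14.3 and 8.08 in Ag 2 and Ag 5. In the same order they held 110, 52.9 and 104 CPM of Foxo1 against 41.1 and 36.1. For Id3 the values were 460, 148 and 460 CPM against 196 and 198, with Ag 3 the lowest. The part of B cells in these values was not tested.

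Prdm1 (chr10:44437177-44528501, minus strand) was lowly expressed throughout. Naive 1 to 5 held 3.01, 8.04, 1.72, 4.03 and 24.1 CPM, Ag 1 to 5 held 1.03, 17.6, 20.5, 2.22 and 16.7 CPM, and Ag+Costim 1 to 5 held 23.1, 21.8, 11.8, 12.8 and 21.8 CPM. Naive 5 was the highest of all 15 libraries and Ag 1 the lowest. None of the comparisons was called (Ag vs Naive 0.49, FDR 0.679; Ag+Costim vs Ag 0.67, FDR 0.582; Ag+Costim vs Naive 1.16, FDR 0.212), with SEs of 0.76. Without Naive 5, Ag+Costim vs Naive was 2.15 (FDR 0.0261). The log2 ratio of Prdm1 to Bach2 counts was -5.41 and -4.19 in Ag 1 and Ag 4 and between -0.19 and 1.04 in the other Ag libraries. Plasma cells also express Prdm1, and their 4 marker genes summed to 1.75 to 13.5 CPM in Naive, 15.9 to 295 CPM in Ag and 54.9 to 121 CPM in Ag+Costim, with 85.8 CPM in Ag 1. Igkc alone was at 289 CPM in Ag 3 and 81.1 CPM in Ag 1. The other markers were low and differed in direction. Means in Naive, Ag and Ag+Costim were 1.72, 0.990 and 0.837 CPM for Sdc1, 0.329, 6.82 and 11.4 for Jchain and 0, 1.81 and 0.633 for Mzb1. The part of plasma cells was not tested. The log2 ratio of Prdm1 to Bach2 was above 0 in all 5 Ag+Costim libraries (0.02 to 1.93). It was below 0 in all 5 Naive libraries (-5.40 to -0.03), and the groups nearly met at Naive 5 and Ag+Costim 3. Bach2 alone did not overlap between these groups in CPM, like 45% of all genes, while Prdm1 overlapped. A share over all ratios of genes was not computed.

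Zeb2 (chr2:44983632-45117395, minus strand), which acts with T-bet in terminal effector cells, was the least abundant factor per kilobase. Naive libraries ranged from 3.78 to 18.5 CPM, Ag libraries from 0.876 in Ag 5 to 18.3 in Ag 3 and Ag+Costim libraries from 3.31 to 5.28 CPM. Ag+Costim lay within the range of Ag and overlapped with Naive. None of the comparisons was called, at -0.88 (SE 0.65, FDR 0.358) for Ag vs Naive, -0.36 (SE 0.66, FDR 0.741) for Ag+Costim vs Ag and -1.25 (SE 0.65, FDR 0.122) for Ag+Costim vs Naive. The second was 0.55 (FDR 0.542) without Ag 3. Myeloid and NK cells express Zeb2. The 6 myeloid genes summed to 129 CPM in Ag 3, and reached 175 CPM in Naive and 149 CPM in Ag+Costim. The 4 NK genes summed to 10.1 to 51.9 CPM in Naive, 2.34 to 35.1 CPM in Ag, with the highest in Ag 3, and at most 2.25 CPM in Ag+Costim. The part of these cells in the Zeb2 values was not tested.

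Foxo1 (chr3:52268336-52353221, plus strand), which drives homing receptors and survival genes in resting cells, was at 155, 112, 128, 146 and 84.9 CPM in Naive libraries 1 to 5. Ag libraries held 110, 41.1, 52.9, 104 and 36.1 CPM and Ag+Costim libraries 38.1, 47.5, 60.2, 32.1 and 38.9 CPM. All Ag+Costim libraries were below all Naive libraries, and Ag 1 and Ag 4 were above Naive 5. Foxo1 fell by 1.53 on the log2 scale in Ag+Costim vs Naive (SE 0.31, FDR 0.00490). Ag vs Naive was -0.86 (SE 0.31, FDR 0.0944), called without Naive 5 (FDR 0.0423), Ag 1 (FDR 0.0413) or Ag 4 (FDR 0.0462), and Ag+Costim vs Ag was -0.67 (SE 0.31, FDR 0.181).

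The 10 factors placed the Ag libraries unevenly between the other groups. Ag 1 and Ag 4 had the lowest Tbx21, Eomes, Id2 and Prdm1 and the highest Tcf7, Lef1, Id3, Bach2 and Foxo1 of the 5 Ag libraries. The log2 ratio of Tbx21 to Tcf7 counts was -3.29 in Ag 1 and -2.97 in Ag 4, and -0.11, -0.14 and 0.10 in Ag 2, Ag 3 and Ag 5. It ranged from -4.53 to -1.15 in Naive, with the highest in Naive 5, and from -0.58 to 0.71 in Ag+Costim. Of the 5 Ag libraries, Ag 2 and Ag 5 had the fewest genes with a count (21705 and 20949) and Ag 3 the most (44408), with 37412 in Ag 1 and 31845 in Ag 4. The part of input, depth and other cells in this order was not tested. Without Ag 2 and Ag 5, chosen for their input after the values were seen, 5 factors were called in Ag+Costim vs Ag, where that fit called 50.5% of all genes: Tbx21 at 1.56 (FDR 0.0206), Id2 at 1.41 (FDR 0.00760), Id3 at -0.997 (FDR 0.0260), Bach2 at -2.03 (FDR 0.00227) and Foxo1 at -0.92 (FDR 0.0219). It called 0 factors in Ag vs Naive, and 4.61% of all genes. Without Ag 1 and Naive 5, a pair left out together because their columns in the deposited FPKM table were identical, 8 factors were called in Ag vs Naive (all but Id3 and Zeb2), where 31.2% of all genes were called, and 0 in Ag+Costim vs Ag, where 0% of all genes were.

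Other transcription factors and target genes were followed in lists. Of 11 further effector-linked factors, 6 were called in Ag+Costim vs Naive, 5 higher and 1 lower, beside 44.7% of all genes (21% higher and 23.6% lower), with a median of 0.63 on the log2 scale. Bhlhe40, a repressor linked to cytokine output, rose by 1.86 (FDR 0.0338) and Irf4, an activation factor scaled to receptor signal strength, by 1.57 (FDR 0.0467), while Batf3 was at 1.76 (FDR 0.136). In Ag vs Naive 2 of the 11 were called (median 0.85), beside 6.71% of all genes (3.05% higher and 3.66% lower). Batf, an AP-1 factor of early effector cells, rose by 0.96 (FDR 0.0387) and Zfp683, which encodes the tissue-residence factor Hobit, fell by 1.38 (FDR 0.0216). Of 11 further quiescence-linked factors, 9 were called in Ag+Costim vs Naive, 2 higher and 7 lower, with a median of -1.38. Satb1, a chromatin organiser, fell by 2.52 (FDR 0.00100), Foxp1, a forkhead factor that keeps naive cells quiescent, by 2.21 (FDR 0.00471) and Klf3 by 2.14 (FDR 0.000543). Myb, which acts in stem-like and proliferating cells, and Tcf3, which encodes an E protein, were the 2 that rose, by 1.45 (FDR 0.0145) and 0.62 (FDR 0.0252). In Ag vs Naive 5 were called (median -0.77), in which Klf2, Klf3, Zeb1 and Satb1 decreased by 0.87, 1.65, 1.11 and 1.92 and Myb rose by 1.44 (FDR 0.00581 to 0.0452). Neither list had a call in Ag+Costim vs Ag, where edgeR called 0.0346% of all genes. There 2 of 11 in each list had an unadjusted p under 0.05, as did 26.8% of all genes. DESeq2 called 2 in each list and 20.7% of the 26932 genes to which it gave an FDR. Batf, Zfp683, Klf2, Zeb1, Myb and Tcf3 were not among the 3 genes of their list with the largest change. They were named after their values were seen.

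Genes of effector function, of the naive state and of cell division were followed too. Among 13 effector products, 7 were called in Ag+Costim vs Naive, 4 higher and 3 lower, a share near the 44.7% of all genes, with a median of 1.19. S1pr5, an egress receptor of terminal effector cells, fell by 2.85 (FDR 0.0150) and Ccl5, a chemokine, by 2.16 (FDR 0.00347), and Gzmk was at 2.21 (FDR 0.111). Mean S1pr5 was low, at 10.1 CPM in Naive and 1.39 CPM in Ag+Costim. The 4 NK marker genes summed to 10.1 to 51.9 CPM in Naive and at most 2.25 CPM in Ag+Costim. The part of NK cells in the decreases of effector products was not tested. Antigen alone gave 5 calls among them (median 0.77), where 6.71% of all genes were called. Of these 5, Ifng, Cxcr3 and Il2rb rose by 1.98, 1.55 and 0.77, whereas Ccl5 fell by 1.62 and Cx3cr1 fell by 1.64 (FDR 0.0222 to 0.0489). Of 13 genes typical of naive cells, 11 were called lower in Ag+Costim vs Naive and 0 higher, with a median of -1.77. Of all genes 23.6% were called lower and 21% higher. Igfbp4 fell by 5.76 (FDR 0.00201), Pik3ip1, an inhibitor of PI3 kinase, by 3.48 (FDR 0.00397) and Il6ra, an interleukin-6 receptor chain, by 3.28 (FDR 0.00327). In Ag vs Naive 5 of these 13 were called (median -0.96), beside 6.71% of all genes. Il7r, S1pr1, Bcl2 and Igfbp4 were at -1.996, -0.98, -2.06 and -3.004, all lower, and Slamf6, a marker of stem-like cells, rose by 1.02 (FDR 0.00874 to 0.0375). In Ag+Costim vs Ag all 13 were below 0, with a median of -0.83. Of them 10 had an unadjusted p under 0.05, as did 26.8% of all genes. EdgeR called 0 of them and 0.0346% of all genes, and DESeq2 called 6 of them and 20.7% of the 26932 genes to which it gave an FDR. All 6 proliferation genes were called higher in Ag+Costim vs Naive, where 21% of all genes were, with a median of 2.18. Among the 6 were Ccnb1 (2.39, FDR 0.0391), Birc5 (2.21, FDR 0.0449) and Cdk1 (2.21, FDR 0.0467). In Naive 5 Mki67 and Top2a, also of this list, were at 334 and 710 CPM, against Naive medians of 34.7 and 64.4 CPM. Of these 6 genes, 0 were called in the other comparisons by edgeR or DESeq2, or at an unadjusted p under 0.05. Voom called 6 in Ag+Costim vs Ag, with 64.5% of all genes, and 3 in Ag vs Naive, with 23.1% of all genes. In Ag+Costim vs Ag, 2 of the 6 did not overlap in CPM and were higher in Ag+Costim, as were 4.23% of all genes. With the filter on low counts left out or lane as a term, 0 were called in Ag+Costim vs Naive. Those fits called 8.49% and 5.43% of all genes. Genes of these lists beyond the 3 with the largest change were named after their values were seen.

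Genes whose profile over the 15 libraries was most like that of a factor were found by the root mean square difference of centred log2 CPM, among 11337 candidates. Nearest to Tbx21 were Cenpl, Haspin and Gm14008, at 0.16, 0.16 and 0.17. Nearest to Id2 were Ube2t, 2810408I11Rik and Snrpd1, at 0.13, 0.15 and 0.16. Tcf7 was nearest to Evl, Orai2 and Lmbr1l (0.16, 0.18 and 0.18), Lef1 to Stx2, Pnpla7 and Galnt6 (0.18, 0.19 and 0.21) and Foxo1 to Nrip1, Tecpr1 and Plekhn1 (0.17, 0.17 and 0.18). Id3 was nearest to Tox, Traf1 and Itm2c, at 0.23, 0.23 and 0.24. Eomes (Tmpo, Cpox and Gm5841) was at 0.24 to 0.26, Bach2 (Crebrf, Als2cl and Cyp4f13) at 0.31 to 0.33 and Prdm1 (I830127L07Rik, Ccr2 and Arsb) at 0.37 to 0.42. Zeb2 had no close neighbour, with Tarbp1, Yod1 and Rdh13 at 0.65 to 0.66.

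Promoter windows of the 10 factors, from 250 bases before to 50 after a RefSeq start (GRCm38.p6), were searched on both strands for short motifs that factors of these families bind. The 10 genes had 17 of 32851 windows. The forkhead motif GTAAACA was in 2 of the 17 (Tcf7 and Prdm1) and in 3.65% of all windows. The E-box CACCTG, bound by E proteins and ZEB factors, was in 4 of the 17 (Tbx21, Tcf7, Lef1 and Prdm1) and in 20.2% of all. The T-box motif AGGTGTG was in 1 window (Lef1, 5.84% of all) and the AP-1 and BACH motif TGACTCA in 1 (Zeb2, 5.2% of all). The TCF/LEF motif CTTTGAT (3.73% of all) and the Blimp-1 motif GTGAAAG (4.24% of all) were in 0. The motifs do not overlap each other in these windows. The windows of Tcf7, which fell in Ag+Costim vs Naive, and of Tbx21, which rose, are shown because each holds a match. They run along the minus strand from 5′ to 3′, with forkhead and E-box matches on either strand in capitals. In the Tcf7 window the matches begin 1 and 39 bases after the start, and in the Tbx21 window 196 bases before it.
Tcf7, chr11:52282546-52282845: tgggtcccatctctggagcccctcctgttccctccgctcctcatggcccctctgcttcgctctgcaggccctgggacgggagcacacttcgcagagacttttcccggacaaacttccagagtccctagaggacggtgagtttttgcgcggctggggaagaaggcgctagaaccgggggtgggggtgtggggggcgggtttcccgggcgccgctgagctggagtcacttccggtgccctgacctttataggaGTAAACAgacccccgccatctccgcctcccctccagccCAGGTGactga
Tbx21, chr11:97115282-97115581: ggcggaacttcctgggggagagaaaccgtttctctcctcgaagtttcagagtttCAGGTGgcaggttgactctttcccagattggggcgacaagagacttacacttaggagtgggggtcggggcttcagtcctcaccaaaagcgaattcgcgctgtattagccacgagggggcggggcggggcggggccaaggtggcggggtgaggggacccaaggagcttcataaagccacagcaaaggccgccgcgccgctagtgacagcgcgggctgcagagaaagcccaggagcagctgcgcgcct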

How the data were processed

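RNA of sorted CD8+ T cells was sequenced as single reads after SMART-Seq v4 and Nextera XT preparation, which does not mark strand. Per the submitters' processing notes, reads were aligned to mm10 with HISAT2 2.1.0 and assembled with StringTie 2.1.0 and SAMtools 1.9; the notes also name R 4.0.5 and DESeq2 1.30.1. The authors deposited StringTie's estimated read count per gene and per transcript as whole numbers, not normalised; the annotation release is not given in the sources used here. The deposited table of FPKM values per transcript was filtered by the authors. Its columns for Ag 1 and Naive 5 were identical and nearest to the counts of Naive 5, so it was used for that check alone. A deposited lane table gave sequenced reads as a count, lane and input amount.

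Of 81881 gene entries, 55536 matched GENCODE M21 (GRCm38) by identifier. A further 26248 entries named by a number alone held 0.0818% of counts and, with 97 entries at 0, were left out. The test on gene counts was edgeR 4.0.16 under R 4.3.3 (filterByExpr, 17366 genes, TMM, robust quasi-likelihood fit, 1 coefficient per group over all 15 libraries, two-sided). The standard error (SE) is the absolute log2 fold change over the square root of F. A call needed an FDR (Benjamini-Hochberg) under 0.05. CPM are counts scaled to a common library size with the TMM factors. Transcript usage was tested with diffSpliceDGE on 25932 transcripts; a call needed a Simes FDR under 0.05 and a transcript FDR under 0.05 with a change in share of at least 0.1. Alternatives were DESeq2 1.42.0, limma 3.58.1 (voom with sample quality weights), other scaling and filters, lane, the replicate number and single libraries left out. In chi-square tests of library pairs within groups the lowest value per degree of freedom was 5.62, so every library counted as 1 sample.

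The 10 factors were named whatever their values, with the 3 genes of each list with the largest absolute log2 fold change in Ag+Costim vs Naive and, per factor, the 3 most similar profiles among genes whose mean CPM was 5 or more. The factors and lists were chosen with earlier results of these data known. Sequences are from GENCODE M21 and RefSeq. Tcf7, Lef1, Eomes, Bach2, Zeb2 and Foxo1 overlap other annotated genes, so their counts may hold reads of those.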

Additional observations from a re-analysis of the deposited data

How the results depend on the processing

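Over 27 refits, 532 of 610 values of single factors kept their direction and side of the threshold; 46 gained a call, 17 lost one and 15 turned sign, none of the last with a call. Signs turned in Ag vs Naive for Id2 (voom -0.025, without Ag 2 and Ag 5 -0.051), Prdm1 (-0.81 and -0.37) and Eomes (without Ag 2 and Ag 5 -0.034). In Ag+Costim vs Ag, Zeb2 turned with voom (0.12), no filter (0.17), the replicate block (0.0040) and without Ag 3 (leaving out 1 library gave -0.64 to 0.55). In Ag+Costim vs Naive, Id3 turned with library totals alone (-0.11), lane (-0.10), 10 libraries (-0.0087), lane 3 alone (-0.10), and without Naive 1 or Ag+Costim 3 (leaving out 1 library gave -0.047 to 0.19). The cause was not tested.

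Counts of calls are given in the order fate factors, effector-linked factors, quiescence-linked factors, effector products, naive-associated genes and proliferation genes. In Ag vs Naive they were 1, 2, 5, 5, 5 and 0. Leaving out 1 library gave 0 to 5, 0 to 5, 2 to 7, 0 to 7, 2 to 9 and 0 to 6, with the highest fate factor count without Naive 5 and 0 without Naive 1, Naive 3 or Ag 2. Those fits called 21.5% of all genes without Naive 5, and 1.42%, 1.48% and 2.84% without Naive 1, Naive 3 and Ag 2. DESeq2 gave 3, 4 and 10 for fate factors, effector-linked factors and naive-associated genes. Voom gave 2, 6, 8 and 3 for these and proliferation genes. Library totals alone gave 3 quiescence-linked factors. No filter gave 0, 0, 2, 2 and 2 for the first 5 lists, and lane as a term or the 10 libraries alone gave 0 for each. Leaving out Ag 1 and Naive 5 gave 8, 7, 8, 9, 10 and 6, and leaving out Ag 2 and Ag 5 (chosen after seeing the data) 0, 1, 3, 3, 3 and 0. Of all genes the main fit called 6.71%, DESeq2 15.8%, voom 23.1%, library totals alone 6.55% and no filter 0.425%. Lane as a term called 0% and the 10 libraries alone 0.0358%. The fit without Ag 1 and Naive 5 called 31.2%, and that without Ag 2 and Ag 5 called 4.61%.

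In Ag+Costim vs Ag every count was 0. Leaving out 1 library gave 0 to 2, 0 to 2, 0 to 4, 0, 0 to 7 and 0, with calls only without Ag 2 or Ag 5. Those fits called 14.8% and 19.7% of all genes. DESeq2 gave 2, 2, 2 and 6 for fate factors, both other factor lists and naive-associated genes, voom 9, 7, 8, 9, 13 and 6 for the 6 lists, and leaving out Ag 2 and Ag 5 gave 5, 5, 5, 0, 8 and 1. Of all genes DESeq2 called 20.7%, voom 64.5% and the fit without Ag 2 and Ag 5 50.5%.

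In Ag+Costim vs Naive the counts were 6, 6, 9, 7, 11 and 6, and leaving out 1 library gave 5 to 8, 3 to 7, 8 to 9, 4 to 10, 9 to 11 and 0 to 6. Lane as a term gave 3, 1, 4, 2, 7 and 0. No filter gave 3 effector-linked factors and 0 proliferation genes, voom gave 11 effector products, and lane 3 alone gave 3, 3 and 0 for effector-linked factors, effector products and proliferation genes. Of all genes the main fit called 44.7%, lane as a term 5.43%, no filter 8.49%, voom 77.9% and lane 3 alone 34.7%. With 1 library left out the share ran from 21.6% (without Naive 4) to 51% (without Naive 5). Usage calls were 0 under every setting.

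The replicate numbers were not taken as pairs: deviations from group means correlated over 0.1 in 5 of 15 same-numbered pairs (-0.32 to 0.47). The replicate block gave 1, 0 and 7 fate factors in the 3 comparisons (Eomes was added in Ag+Costim vs Naive, 1.23, FDR 0.0208) and 0 usage calls. In the same order it called 9.56%, 0% and 45.1% of all genes. Library totals alone moved the median of all genes in Ag+Costim vs Naive from -0.08 to -0.23. Depth limits Prdm1 and Zeb2 most, with as few as 12 and 14 counts in a library.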
